A study of Homo sapiens with 14 samples.

Results

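The 10 genes described here are CLDN1, TMEM217, PHLDA1, TNFRSF12A, SERTAD1, CREB5, IER2, IER3, IER5 and OTUD1, out of 58037 gene IDs in the count table. They were chosen by their low counts in control cells and their higher counts after homoharringtonine (HHT), so those values are given as a description without a test. The cells were OCI-AML2, a human acute myeloid leukaemia line, either wild type for RUNX1 (2 total RNA libraries, treatment None) or carrying the R174* stop codon on 1 RUNX1 allele. The mutant cells came as lines F3 and G7, each with 2 control libraries and 2 libraries from cells given 100 nM HHT over 8 h. The drug is an inhibitor of translation elongation, and wild-type cells treated with it were not analysed here. RiboLace, which captures RNA bound to translating ribosomes, gave 2 libraries of untreated wild-type cells and 2 of untreated F3 cells.

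The treatment label of the mutant controls reads 8 h, whereas the library names of controls and wild type carry 0 h, so HHT and time in culture cannot be told apart if the names are right. Genotype and control treatment cannot be told apart either. Whether replicates were separate cultures, and whether F3 and G7 each grew from 1 cell, is not in the labels, so p-values measure only the spread between these libraries. Libraries held 19250789 to 21925693 counts in total RNA and 465052 to 2034796 in RiboLace, where 3 reads equal 1.57 to 6.2 CPM, the read count scaled to library size. CPM are scaled by TMM within each assay, and intervals cover counting error only. In bulk RNA, fewer cells of a type and less RNA per cell cannot be told apart.

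Immediate early genes are transcribed within minutes of a growth factor or stress signal, without new protein having to be made first. Their mRNAs are usually short-lived, in part through AU-rich elements in the 3′UTR, and inhibitors of protein synthesis have long been known to raise many of them. IER2, IER3, IER5, PHLDA1 and SERTAD1 are commonly listed with that class. The other members are a claudin, a receptor, a bZIP transcription factor, a deubiquitinase and TMEM217, a transmembrane protein.

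The upstream sequences of 6 members are shown, and their promoters were searched for the motifs named after them. These members have a single promoter each in the RefSeq table. TMEM217 and CREB5, also searched, have alternative promoters and are not shown. Each sequence is the 120 bases before the start annotated in RefSeq on GRCh38.p14, in the direction of the gene. The gene coordinates given further below are from GENCODE, and the starts differ. By those, the PHLDA1 stretch lies inside the gene, and the CLDN1 and SERTAD1 stretches overlap the first bases of theirs. The OTUD1 stretch ends short of its gene start at 23439458. They lie at chr3:190322447-190322566 (CLDN1, minus strand), chr12:76031777-76031896 (PHLDA1, minus), chr19:40425993-40426112 (SERTAD1, minus), chr19:13150291-13150410 (IER2, plus), chr1:181088580-181088699 (IER5, plus) and chr10:23438955-23439074 (OTUD1, plus). Capitals mark GGGCGG (SP1 family), CCGGAA (ETS family) and CACGTG (E-box) on either strand.
CLDN1: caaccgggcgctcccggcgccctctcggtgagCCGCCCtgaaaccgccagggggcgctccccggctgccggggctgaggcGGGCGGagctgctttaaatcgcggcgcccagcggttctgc
PHLDA1: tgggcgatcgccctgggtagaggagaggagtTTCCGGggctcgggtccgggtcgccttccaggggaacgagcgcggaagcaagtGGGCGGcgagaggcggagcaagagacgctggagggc
SERTAD1: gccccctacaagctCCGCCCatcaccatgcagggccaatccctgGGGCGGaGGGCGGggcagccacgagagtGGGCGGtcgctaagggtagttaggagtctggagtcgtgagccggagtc
IER2: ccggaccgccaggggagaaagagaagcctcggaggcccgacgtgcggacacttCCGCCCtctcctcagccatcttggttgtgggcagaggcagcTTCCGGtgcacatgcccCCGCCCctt
IER5: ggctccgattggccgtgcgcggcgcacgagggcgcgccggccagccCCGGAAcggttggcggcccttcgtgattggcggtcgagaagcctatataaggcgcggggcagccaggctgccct
OTUD1: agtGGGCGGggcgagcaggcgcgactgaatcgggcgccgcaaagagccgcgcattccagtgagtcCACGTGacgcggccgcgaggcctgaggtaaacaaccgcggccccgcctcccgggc

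Of the 10 members, 8 had promoters in the RefSeq table, and each was searched on both strands over 250 bases before the RefSeq start. GGGCGG was present in 6 of these 8 members against 46.2% of all genes in the table. CCGGAA was present in 4 (IER5, TMEM217, PHLDA1 and IER2) against 17.2%. Some motifs well known from immediate early promoters were not found. The CArG box bound by SRF, the full CRE TGACGTCA and the NF-kB motif were in 0 of 8, against 1.44%, 2.03% and 6.28% of genes. The shorter CRE element TGACG, which the full CRE contains, was present in 3 of 8 (TMEM217, OTUD1 and IER2), against 24.9%. The AP-1 motif TGANTCA was found in CREB5 alone (8.06% of genes), as was TATAAA, a form of the TATA box (13%), and CACGTG in OTUD1 alone (7.73%). Other forms of the TATA box, such as the tatataag in the IER5 stretch, were not searched for. A match is only a match of letters, and its absence says nothing about a factor.

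After HHT, the total RNA level of each of the 10 genes was higher in all 4 treated libraries than in all 4 controls and both wild-type libraries. The members were chosen for such a rise, so this is a description. The share of all genes with the same separation was not counted. Over all 13621 genes tested, 39.9% were called higher and 39.3% lower after HHT. With library totals as the scale the higher share of the calls went from 50.4% to 61.9%, as the median of all genes moved from -0.002 to 0.231. The 5th to 95th percentile of the log2 fold change ran from -1.95 to 1.71. The members lay between 7.37 ± 0.24 (SE) for CLDN1, the 3rd highest of all genes, and 0.74 ± 0.14 for IER5, ranked 3018. Their median was 5.42, beside a median of 0 over all genes. The label of the group held for 7 of them. IER2, IER5 and OTUD1 were neither near silent in controls nor, in the case of IER5 and OTUD1, among the steepest responses.

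**Figure D1:**
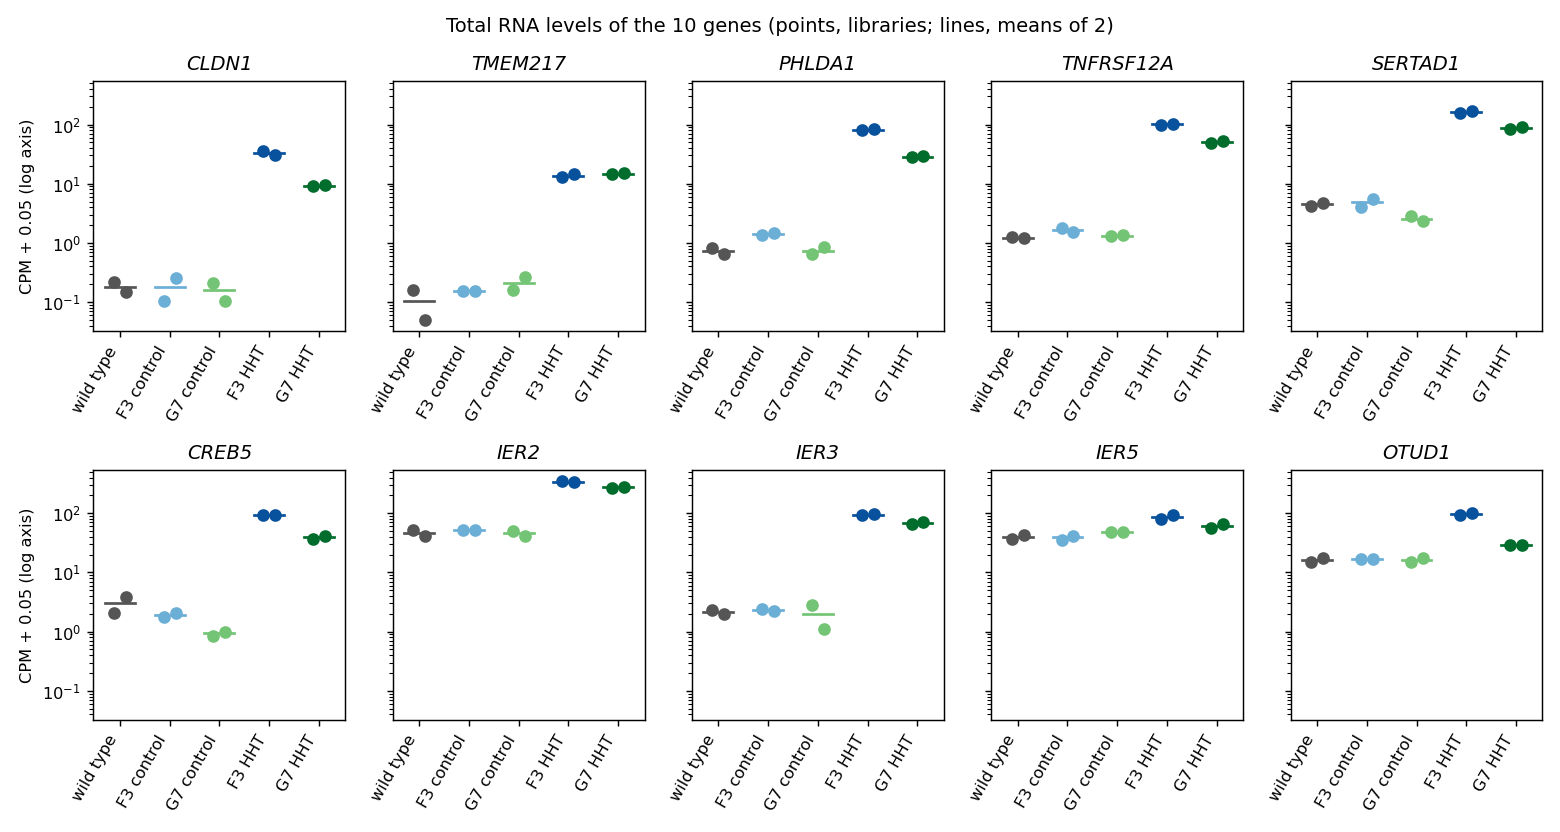
Total RNA level of each gene by group, in CPM plus 0.05 on a log axis. Points are libraries and lines are means of 2; each gene sits higher in the HHT libraries of F3 (dark blue) and G7 (dark green) than in controls and wild type, and IER5 has the smallest gap.

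CLDN1 (ENSG00000163347.5, chr3:190305701-190322475 on GRCh38, minus strand, 4 exons) encodes claudin-1, a sealing protein of epithelial tight junctions. It held 0.165 and 0.0999 CPM in wild type, 0.0527 and 0.205 in the F3 controls and 0.162 and 0.053 in the G7 controls, which is 1 to 4 reads per library. Treated cells held 35.1 and 30.2 CPM in line F3 and 8.96 and 9.34 in line G7. Control and treated values were thus far apart in both lines, with G7 well under F3 after treatment. The 1953 treated against 9 control reads gave a ratio of 206 (exact 95% interval 108 to 451), and the log2 fold change was 7.91 ± 0.27 in F3 and 6.36 ± 0.34 in G7. With 5 and 4 control reads in the lines, these SE are smaller than counting error alone. The exact 95% intervals of the ratio overlapped, at 124 to 896 in F3 and 39.4 to 375 in G7.

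Most other tight junction genes that could be tested fell after HHT. Of 34 claudins, junctional adhesion molecules and scaffold genes besides CLDN1, 8 had enough reads to test, of which 2 rose (CLDN15 and CGNL1, by 0.61 and 0.52 on the log2 scale) and 6 fell, with a median of -1.13. Among all genes tested 39.9% rose and 39.3% fell, with a median of 0. Without a filter on low counts, 22 were tested, 3 rose and 8 fell, with a median of -0.16. F11R, a junctional adhesion molecule, fell by 1.27 ± 0.09 (edgeR adjusted p = 9.76e-09). CLDN12, a claudin, fell by 1.53 ± 0.15 (edgeR adjusted p = 2.89e-07). The summed level of 12 epithelial markers lay between 0.741 and 1.42 CPM in controls and between 0.686 and 1.27 in HHT libraries. EPCAM and KRT19 had 0 reads in every library, and CDH1 had 0 in total RNA. The 18 myeloid markers summed to 7220 to 10100 CPM in controls, 3640 to 4380 in wild type and 3190 to 3650 after HHT, and of 15 tested 2 rose and 12 fell. Most of the sum came from the granule genes AZU1, PRTN3 and CTSG. SPI1 went the other way, from 5916 to 7349 reads per control library to 10770 to 13701 after HHT. FCGR1A did too, from 1477 to 2198 reads to 3811 to 5467. The sum of 10 mesenchymal markers was 9.32 to 11.3 CPM without HHT and 2.97 to 4.02 with it, but only 2 could be tested and they went opposite ways. PDGFRB fell by 4.11 ± 0.27 (edgeR adjusted p = 5.24e-09), from 131 to 179 reads per library to 4 to 20, and FBN1 rose by 0.75 ± 0.19 (adjusted p = 0.00212). The 10 lymphoid markers lay at 27.3 to 36.3 CPM and then 16.8 to 17.2, with 4 tested and all 4 lower. The 10 erythroid ones lay at 17.3 to 24.6 and then 4.94 to 10.1, nearly all of it from EPOR (-1.48 ± 0.11, adjusted p = 2.22e-08), the one tested, while ALAS2 and HBB had 0 reads in every library. CD34 and KIT had 0 or 1 read in every library. The part of these shifts in the members' values was not tested.

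TMEM217 (ENSG00000172738.11, chr6:37212180-37258155, minus strand, 4 exons) had 0 to 4 reads in each untreated total RNA library. That was 0.11 and 0 CPM in wild type, 0.105 and 0.103 in the F3 controls and 0.108 and 0.212 in the G7 controls. In HHT libraries it measured 13.04 and 14.3 CPM in line F3 and 14.5 and 14.97 in line G7, so the treated lines lay close together. Treated over control reads gave a ratio of 126 (exact 95% interval 68.4 to 264). TMEM217 shares 384 bases with TBC1D22B on the opposite strand, and strandedness is not given in the sources used here. TBC1D22B had 609 to 661 reads in controls and 1284 to 1432 after HHT, a rise of 0.76 ± 0.07 (log2, edgeR adjusted p = 1.21e-07). Its part in the TMEM217 counts was not tested.

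TNFRSF12A (ENSG00000006327.13, chr16:3018445-3022383, plus strand, 4 exons) encodes Fn14, the receptor for the cytokine TWEAK. Its level was 1.21 and 1.15 CPM in wild type, 1.74 and 1.49 in the F3 controls and 1.24 and 1.32 in the G7 controls. With HHT its level was 99.5 and 101.7 CPM in line F3 and 48.3 and 53.0 in line G7. Treated G7 lay below treated F3, with no overlap, and both were far above every untreated library. The log2 fold change was 5.96 ± 0.13 in F3 and 5.32 ± 0.14 in G7. CLDN6, which overlaps TNFRSF12A by 1627 bases on the opposite strand, had 0 to 2 reads per library.

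Of 11 other genes of the TWEAK pathway behind this receptor, 10 were tested, 9 rose and 1 (TRAF5, -1.32 ± 0.12) fell, with a median of 1.28 against 0 over all genes, of which 39.9% rose and 39.3% fell. MAP3K14, the kinase that starts noncanonical NF-kB signalling, rose by 4.41 ± 0.08 (log2, edgeR adjusted p = 3.88e-14). RELB, the NF-kB subunit of that branch, rose by 2.95 ± 0.10 (adjusted p = 6.7e-12), and the adaptor TRAF6 by 2.01 ± 0.08 (adjusted p = 4.22e-11). The ligand gene TNFSF12 had too few reads to test in this comparison.

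PHLDA1 (ENSG00000139289.13, chr12:76025447-76033932, minus strand, 2 exons) encodes a pleckstrin homology-like protein linked to cell death. It held 0.769 and 0.6 CPM in wild type, 1.32 and 1.44 in the F3 controls and 0.592 and 0.794 in the G7 controls. HHT libraries held 79.3 and 82.9 CPM in line F3 and 27.8 and 28.99 in line G7, and F3 was above G7 in both states. By line the log2 fold change was 5.87 ± 0.13 and 5.36 ± 0.16. PHLDA2, a close relative, had 0 reads in all 4 controls and 153 in the 4 HHT libraries (0.905 to 2.27 CPM). Against 3 reads over the control group this is at least 41.3-fold higher. PHLDA2 passed the read filter through the HHT libraries alone, so no p-value is given. PHLDA3, a target of p53, stood at -0.12 ± 0.15 (adjusted p = 0.459), or 0.11 with library totals as the scale.

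IER3 (ENSG00000137331.11, chr6:30743199-30744554, minus strand, 2 exons) encodes IEX-1, a regulator of cell survival. It stood at 2.25 and 1.90 CPM in wild type, 2.37 and 2.21 in the F3 controls and 2.75 and 1.06 in the G7 controls, so the G7 pair spanned the others. Treated cells held 94.5 and 95.6 CPM in line F3 and 65.2 and 72.1 in line G7. The log2 fold changes of 5.37 ± 0.18 (F3) and 5.19 ± 0.19 (G7) lay within 1 SE of each other. IER3-AS1, on the opposite strand, had 0 to 2 reads per library, and the annotated opposite-strand genes over PHLDA1, CREB5 and IER2 had 0.

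SERTAD1 (ENSG00000197019.4, chr19:40421592-40426025, minus strand, 2 exons) encodes a SERTA domain protein that binds CDK4. Its level was 4.18 and 4.70 CPM in wild type, 4.06 and 5.49 in the F3 controls and 2.75 and 2.28 in the G7 controls. In HHT libraries it measured 158 and 167 CPM in line F3 and 84.2 and 91.8 in line G7. G7 was below F3 before and after treatment by a similar factor, and the log2 fold changes were 5.08 ± 0.12 (F3) and 5.15 ± 0.14 (G7). The fold changes of its relatives were smaller. SERTAD3 rose by 0.79 ± 0.08 (edgeR adjusted p = 3.96e-07) and SERTAD2 by 0.55 ± 0.07 (adjusted p = 6.47e-06). CDCA4 stood at -0.16 ± 0.07 (adjusted p = 0.0391), a call that turned to 0.07 (adjusted p = 0.337) with library totals as the scale and did not pass without F3 control 2 or without HHT replicate 1, 2 or 3 (adjusted p of 0.0579 to 0.138). SERTAD4 had 0 reads in total RNA.

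CREB5 (ENSG00000146592.16, chr7:28299321-28825894, plus strand, 11 exons) encodes a bZIP factor of the CREB/ATF family. It held 2.03 and 3.85 CPM in wild type, 1.74 and 2.00 in the F3 controls and 0.808 and 0.953 in the G7 controls. HHT libraries stood at 92.5 and 91.8 CPM in line F3 and 37.3 and 41.9 in line G7. As with SERTAD1, the lines were apart in both states, and the log2 fold changes of 5.62 ± 0.13 and 5.50 ± 0.15 were within 1 SE. Across the rest of the family, 22 of 24 genes were tested, of which 11 rose, 7 fell and 4 did not pass, with a median of 0.19. For all genes tested the shares were 39.9% and 39.3%, and the median was 0. ATF3, a stress-responsive repressor, rose by 3.30 ± 0.08 (edgeR adjusted p = 7.03e-13) and CRTC3, a CREB coactivator, by 1.35 ± 0.07 (adjusted p = 7.58e-10). JDP2, a repressor of AP-1, fell by 1.98 ± 0.09 (adjusted p = 9.33e-11).

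IER2 (ENSG00000160888.6, chr19:13150415-13154908, plus strand, 1 exon in the transcript used), a nuclear immediate early protein, was well expressed without treatment. It stood at 51.3 and 41.9 CPM in wild type, 52.7 and 51.2 in the F3 controls and 50.6 and 41.4 in the G7 controls. With HHT its level was 348.5 and 336.9 CPM in line F3 and 264 and 281 in line G7. The log2 fold changes were 2.72 ± 0.09 and 2.59 ± 0.09.

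IER5 (ENSG00000162783.10, chr1:181088712-181092899, plus strand, 1 exon) belongs to the same protein family and is known for its link to the heat shock factor HSF1. It held 37.2 and 43.3 CPM in wild type, 35.9 and 41.9 in the F3 controls and 48.5 and 48.1 in the G7 controls, where the G7 pair was the highest. After HHT the order of the lines turned, with 80.0 and 95.04 CPM in line F3 and 55.4 and 65.0 in line G7. The log2 fold change was 1.17 ± 0.11 in F3 and 0.34 ± 0.11 in G7. IER5L, their relative, stood at 4.69 and 5.18 CPM in the F3 controls and 3.12 and 1.69 in the G7 controls. HHT libraries held 13.2 and 18.1 CPM of it in F3 and 4.72 and 4.52 in G7, a rise over both lines of 1.37 ± 0.19 (edgeR adjusted p = 1.06e-05).

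OTUD1 (ENSG00000165312.6, chr10:23439458-23442390, plus strand, 1 exon) encodes a deubiquitinase of the OTU family. Its untreated level hardly varied, at 15 and 17.7 CPM in wild type, 16.7 and 16.7 in the F3 controls and 14.9 and 17.2 in the G7 controls. Treated cells held 93.4 and 101.7 CPM in line F3 and 28.8 and 28.8 in line G7. The log2 fold change was 2.54 ± 0.09 in F3 and 0.86 ± 0.10 in G7. Of 15 other OTU genes 12 were tested, and 9 rose, 1 fell and 2 did not pass, with a median of 0.45. Among all genes tested 39.9% rose and 39.3% fell, with a median of 0. OTUD6B rose by 1.59 ± 0.08 (edgeR adjusted p = 5.11e-10) and OTUD5 by 1.03 ± 0.06 (adjusted p = 3.17e-09). OTUB2 fell by 1.43 ± 0.15 (adjusted p = 6.35e-07).

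**Figure D2:**
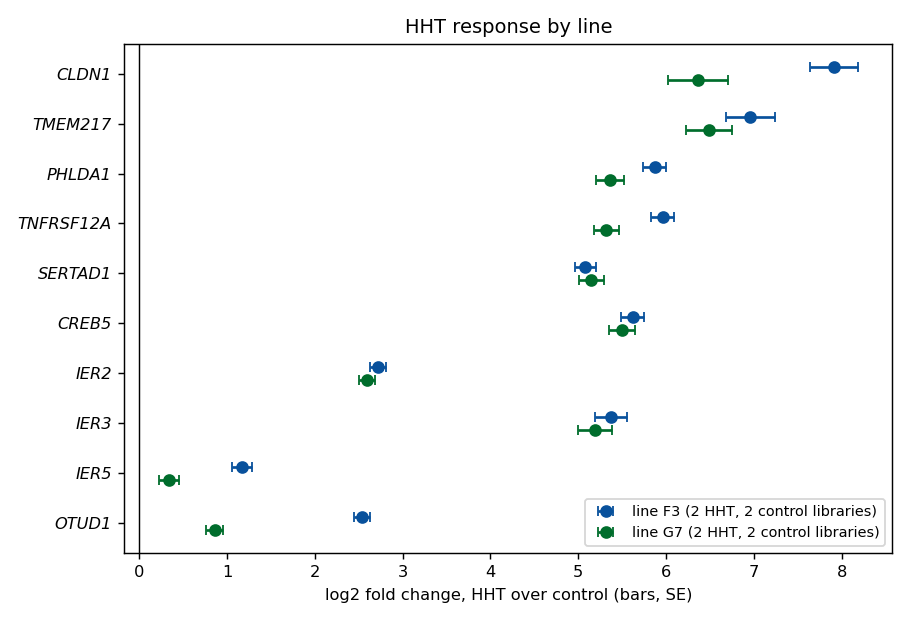
Log2 fold change of HHT over control in line F3 (blue) and line G7 (green), 2 HHT and 2 control libraries each, with SE bars. The lines lie close together for SERTAD1, CREB5 and IER2 and furthest apart for OTUD1 (2.54 and 0.86), CLDN1 (7.91 and 6.36) and IER5 (1.17 and 0.34). The bars are too narrow where control reads were few, above all for CLDN1 and TMEM217, and the CLDN1 difference rests on 9 control reads in all.

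Compared per kilobase of exon, so that genes of different length can be ordered, the control levels ran from 15.9 ± 1.68 CPM per kb for IER2 (SD, n = 4) through IER5 (10.4 ± 1.42) and OTUD1 (5.59 ± 0.344) to 0.0323 ± 0.0212 for CLDN1. The length is that of all annotated exons of a gene together. It exceeds the main transcript in TNFRSF12A (1848 and 1033 bases) and CREB5 (11674 and 8532), among others. The order by main transcript length was not worked out and can differ. Within each line, PHLDA1 and CREB5 did not differ beyond their spread, nor did TMEM217 and CLDN1. SERTAD1 and IER3 overlapped in the G7 controls (1.19 ± 0.157 and 1.40 ± 0.88, SD, n = 2) but not in the F3 controls (2.26 ± 0.48 and 1.69 ± 0.0852). After HHT the order of the levels differed between the lines, so it is given for each. In F3, IER2 stood first at 112 ± 2.68 CPM per kb (SD, n = 2), followed by SERTAD1 (76.8 ± 3.18), IER3 (70.1 ± 0.548) and TNFRSF12A (54.4 ± 0.819). OTUD1 (33.3 ± 2.00) lay above IER5 (20.9 ± 2.54). PHLDA1 (10.1 ± 0.311) and CLDN1 (8.91 ± 0.951) were within their spread, ahead of CREB5 (7.89 ± 0.0409), and TMEM217 was last at 4.99 ± 0.321. In G7, IER2 (88.8 ± 3.81) was again first, but IER3 (50.6 ± 3.61) stood above SERTAD1 (41.6 ± 2.52), with TNFRSF12A (27.4 ± 1.78) next. IER5 (14.4 ± 1.63) lay above OTUD1 (9.83 in both libraries), the reverse of F3. TMEM217 (5.38 ± 0.132) came before PHLDA1 (3.52 ± 0.106) and CREB5 (3.39 ± 0.282), which overlapped, and CLDN1 was last at 2.50 ± 0.0736.

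After HHT, 9 of the 10 genes were lower in G7 than in F3, each with both G7 libraries under both F3 libraries, while over all 14435 genes tested 11.3% were called lower and 9.54% higher. With library totals as the scale the higher share of those calls over all genes went from 45.7% to 56%. The difference was 3.52-fold for CLDN1 (log2 -1.81 ± 0.13, edgeR adjusted p = 8.89e-08) and 3.34-fold for OTUD1 (-1.74 ± 0.09, adjusted p = 2.22e-09). PHLDA1 was 2.82-fold lower (-1.49 ± 0.09, adjusted p = 7.93e-09) and CREB5 2.29-fold lower (-1.20 ± 0.09, adjusted p = 8.55e-08). These 4 encode a tight junction protein, a deubiquitinase, a pleckstrin homology-like protein and a bZIP factor. TNFRSF12A and SERTAD1 followed at 1.96-fold (-0.97 ± 0.08, adjusted p = 4.93e-07) and 1.82-fold (-0.86 ± 0.09, adjusted p = 5.29e-06). IER5 differed by -0.52 ± 0.10 (adjusted p = 0.00187), IER3 by -0.45 ± 0.12 (adjusted p = 0.014) and IER2 by -0.31 ± 0.09 (adjusted p = 0.0176). TMEM217 stood at 0.13 ± 0.12 (adjusted p = 0.51). The median over the 10 genes was -0.92, against 0 over all genes. The IER2 and IER3 calls were lost without HHT replicate 1, 2 or 3 (adjusted p of 0.0678 to 0.142 and of 0.052 to 0.116), and the IER3 call in DESeq2 (adjusted p = 0.382).

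In the controls, 3 of the 10 genes were already lower in G7, where 10.4% of all genes were called lower and 8.53% higher. CLDN1 and TMEM217, with 1 to 4 reads per control library, passed the read filter through the HHT libraries alone. So few reads left little room for a call in them. SERTAD1 differed by -0.93 ± 0.19 (edgeR adjusted p = 0.00252), CREB5 by -1.08 ± 0.26 (adjusted p = 0.0077) and PHLDA1 by -0.98 ± 0.28 (adjusted p = 0.0226). All 3 had both G7 controls under both F3 controls. IER5 was the one member with a difference in the other direction close to the threshold, at 0.31 ± 0.11 (adjusted p = 0.0582; 0.0345 with library totals as the scale and 0.0301 without a filter). The median over the members, CLDN1 and TMEM217 included, was -0.27, beside 0.01 over all genes. The 3 calls rested on 11 to 107 reads per library. PHLDA1 was lost without F3 control 1 (adjusted p = 0.0571), F3 control 2 (0.111) or G7 control 3 (0.146), in limma-voom (0.0719) and with the 4 control libraries alone (0.0894). CREB5 was lost without F3 control 2 (0.0561). Without G7 control 3, IER2 (-0.36, adjusted p = 0.00997) and IER3 (-1.14, adjusted p = 0.0132) passed as well.

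The difference between the lines in the response itself, tested as the interaction of line and treatment, passed for 2 of the 10 genes, both with the smaller response in G7. Over all 14435 genes 3.8% passed, 2% with a difference (G7 minus F3) below 0 and 1.79% with one above 0. OTUD1 differed by -1.68 ± 0.14 (edgeR adjusted p = 6.2e-06) and IER5 by -0.83 ± 0.15 (adjusted p = 0.00481), and the latter did not pass without F3 control 1 (-0.69, adjusted p = 0.0817). Both genes have a single exon and were well expressed before treatment. IER2 was also well expressed, with a single exon in the transcript used here, and did not pass (-0.13 ± 0.13, edgeR adjusted p = 0.679). CLDN1 had a large difference with a wide error, -1.54 ± 1.00, with 9 control reads in all. It passed the read filter through the HHT libraries alone, so no p-value is given. TNFRSF12A stood at -0.64 ± 0.26 (adjusted p = 0.201) and PHLDA1 at -0.51 ± 0.31 (adjusted p = 0.492). TMEM217 stood at -0.47 ± 0.76, with 10 control reads in all and the same limit as CLDN1. SERTAD1, CREB5, IER2 and IER3 lay between -0.18 and 0.06. The median of the members, CLDN1 and TMEM217 included, was -0.49, beside 0 over all genes. The after-HHT, control and interaction values come from the same 8 libraries and are not independent of one another.

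**Figure D3:**
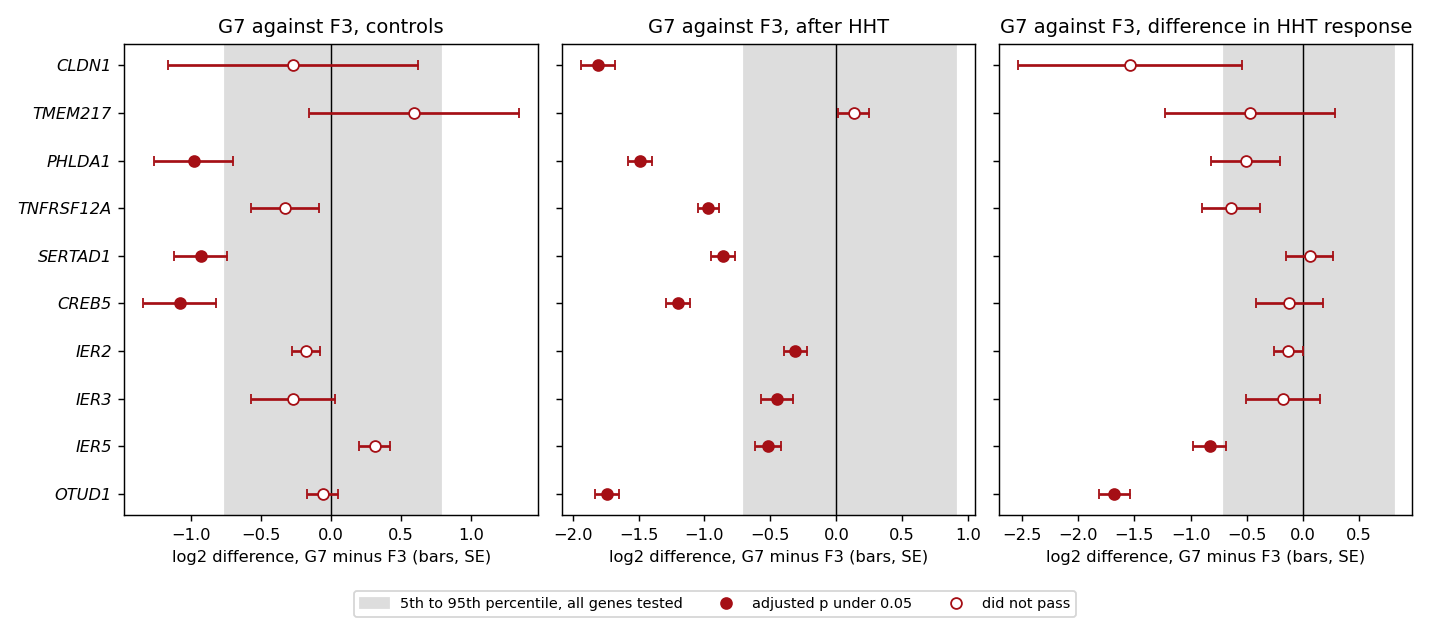
Log2 difference of G7 minus F3 in controls (left), after HHT (middle) and in the HHT response (right), with SE bars; filled points passed at an adjusted p under 0.05. The grey band is the 5th to 95th percentile of all genes tested, and in the middle panel 9 of 10 genes are filled and below 0, against 3 in controls and 2 in the response. The CLDN1 and TMEM217 points at left and right rest on 9 and 10 control reads.

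Mutant controls set beside wild type gave few calls among these genes. Of the 10, 8 had enough reads to test, and 0 passed in edgeR with F3 and G7 as 1 group (4.56% of all genes passed), in DESeq2 or in limma-voom. At an unadjusted p under 0.05 there was 1, CREB5 (-1.10 ± 0.40, adjusted p = 0.144), which passed when no filter was applied (adjusted p = 0.00784). The other tested members lay between -0.29 for SERTAD1 and 0.59 ± 0.43 for PHLDA1. For the pair left out, control over wild-type reads gave ratios of 0.898 for CLDN1 (exact 95% interval 0.27 to 3.41) and 2.5 for TMEM217 (0.532 to 23.4). Because the members were chosen for low control levels, a low control value in them was favoured from the start.

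By line, F3 controls against wild type gave 0 of 8 calls in edgeR, DESeq2 and limma-voom (18.1% of all genes in edgeR). At an unadjusted p under 0.05 there were 2, PHLDA1 (1.00 ± 0.37, adjusted p = 0.0728) and CREB5 (-0.67 ± 0.31, adjusted p = 0.145). CREB5 passed when wild-type replicate 1 was left out (-1.04, adjusted p = 0.0285). G7 controls gave 2 of 8, both lower, where 8.82% of all genes were lower and 8.87% higher. CREB5 stood lower, at -1.75 ± 0.35 (edgeR adjusted p = 0.00187), with the order of levels wild type, F3, G7. SERTAD1 stood at -0.83 ± 0.23 (adjusted p = 0.0198). Its call was lost in DESeq2 (0.0692) and without wild-type replicate 2 (0.0742) or G7 control 4 (0.0841).

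RiboLace detected few reads of most members in untreated cells. Reads in the 2 wild-type and then the 2 F3 libraries numbered 0, 0, 0 and 0 for CLDN1, 0, 0, 1 and 1 for TMEM217 and 0, 1, 1 and 0 for PHLDA1. They were 5, 6, 0 and 1 for TNFRSF12A, 7, 7, 4 and 1 for SERTAD1 and 9, 4, 2 and 1 for CREB5. The 3 IER genes and OTUD1 were better covered. IER2 stood at 32.0 and 40.8 CPM in wild type and 66.0 and 78.6 in F3. IER5 stood at 61.3 and 70.5 against 41.8 and 31.0, and OTUD1 at 8.38 and 2.78 against 15.05 and 12.4. IER5 thus lay in the opposite direction to IER2 and OTUD1, and the OTUD1 values rested on 3 to 18 reads per library. IER3 held 7.33 and 12.99 CPM in wild type and 6.69 and 8.27 in F3, from 4 to 14 reads.

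Between F3 and wild type in RiboLace, 3 members had enough reads to test and 1 passed, where 6.18% of all 9805 genes were called higher and 5.59% lower. IER2 was higher in F3 by 0.99 ± 0.31 (log2, edgeR adjusted p = 0.0321). The call did not pass without a filter (0.0969), in DESeq2 (0.121) or without wild-type RiboLace replicate 1 (0.204), F3 RiboLace replicate 1 (0.084) or F3 RiboLace replicate 2 (0.234). IER5 stood at -0.80 ± 0.31 (adjusted p = 0.0862) and OTUD1 at 1.19 ± 0.56 (adjusted p = 0.164).

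RiboLace set against total RNA of the same cells gave 4 of 8 tested members different in wild type, close to the 48.3% of all genes (27.3% higher and 21% lower in RiboLace). IER3 was higher in RiboLace by 2.38 ± 0.41 (edgeR adjusted p = 5.28e-05), IER5 by 0.88 ± 0.17 (adjusted p = 0.000233) and TNFRSF12A by 1.84 ± 0.63 (adjusted p = 0.0202). OTUD1 stood lower, at -1.19 ± 0.34 (adjusted p = 0.00655). CREB5 (0.74 ± 0.53), SERTAD1 (0.27 ± 0.46) and IER2 (-0.20 ± 0.20) did not pass. Without wild-type RiboLace replicate 2 neither TNFRSF12A (0.233) nor OTUD1 (0.0773) passed, and TNFRSF12A also failed without either total RNA library (0.0523 and 0.0605). In F3, 2 of 8 passed, both higher, against 49.2% of all genes (26.5% higher). IER3 was higher by 1.79 ± 0.55 (adjusted p = 0.0104) and IER2 by 0.58 ± 0.20 (adjusted p = 0.0178). IER5 (0.12 ± 0.23) and OTUD1 (-0.09 ± 0.34) did not pass. Neither IER3 nor IER2 passed without F3 RiboLace replicate 1 (IER3 0.126, IER2 0.0885) or 2 (IER3 0.0523, IER2 0.114), and IER2 did not pass without a filter (0.0826). The assays differed in other ways, with mesenchymal markers, mostly COL6A3, summing to 156 to 645 CPM in RiboLace and 9.32 to 13.2 in untreated total RNA. The part of this in the members' values was not tested.

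**Figure D4:**
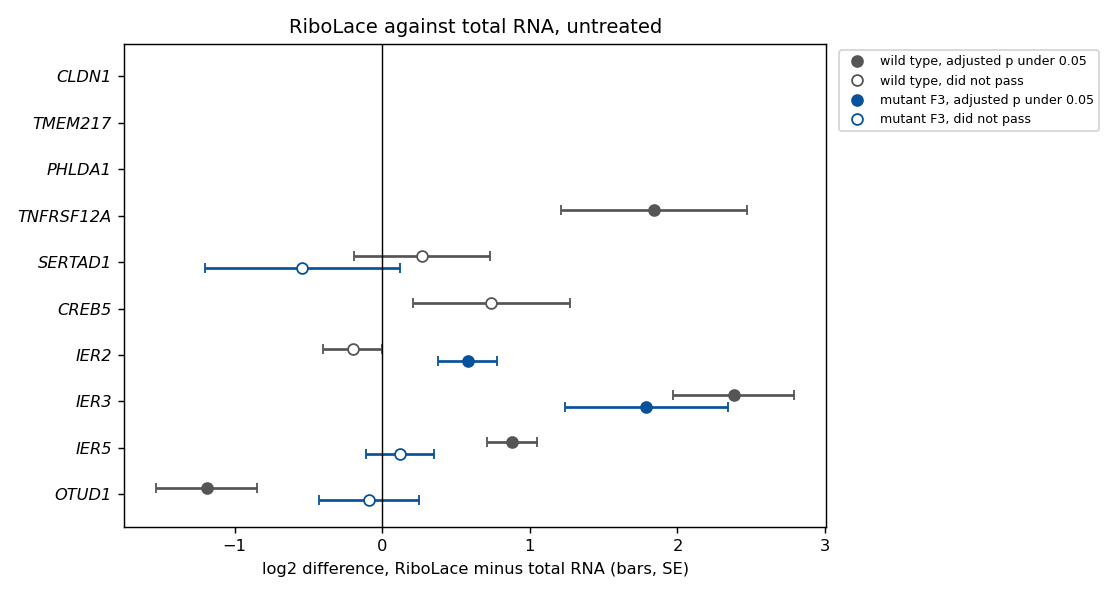
Log2 difference of RiboLace minus total RNA in untreated wild-type (grey) and F3 cells (blue), with SE bars; filled points passed at an adjusted p under 0.05. Members with 3 or fewer RiboLace reads in a group have no point, and IER3 is the one gene filled and above 0 in both.

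Genes of the immediate early list used here, which holds 5 of the members, rose widely after HHT. The list was chosen with earlier results of these data known. Of 67 other immediate early genes 60 were tested, and 49 rose, 6 fell and 5 did not pass, with a median of 1.98 against 0 over all genes. EGR1, a zinc finger factor, rose by 5.59 ± 0.09 (log2, edgeR adjusted p = 2.1e-14), KLF10 by 4.78 ± 0.08 (adjusted p = 2.15e-14) and the phosphatase gene DUSP8 by 6.14 ± 0.13 (adjusted p = 1.58e-13). Over all genes tested in this comparison, 39.9% rose and 39.3% fell. In the interaction, the difference (G7 minus F3) passed below 0 for 10 of 61 tested genes of the class and above 0 for 5, beside 2% and 1.79% of all genes. That sign is not the size of the response, since some of these genes fell after HHT. ZFP36L2, for example, fell by 1.37, and its difference of -0.52 ± 0.11 (edgeR adjusted p = 0.0161) means a deeper fall in G7.

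**Figure D5:**
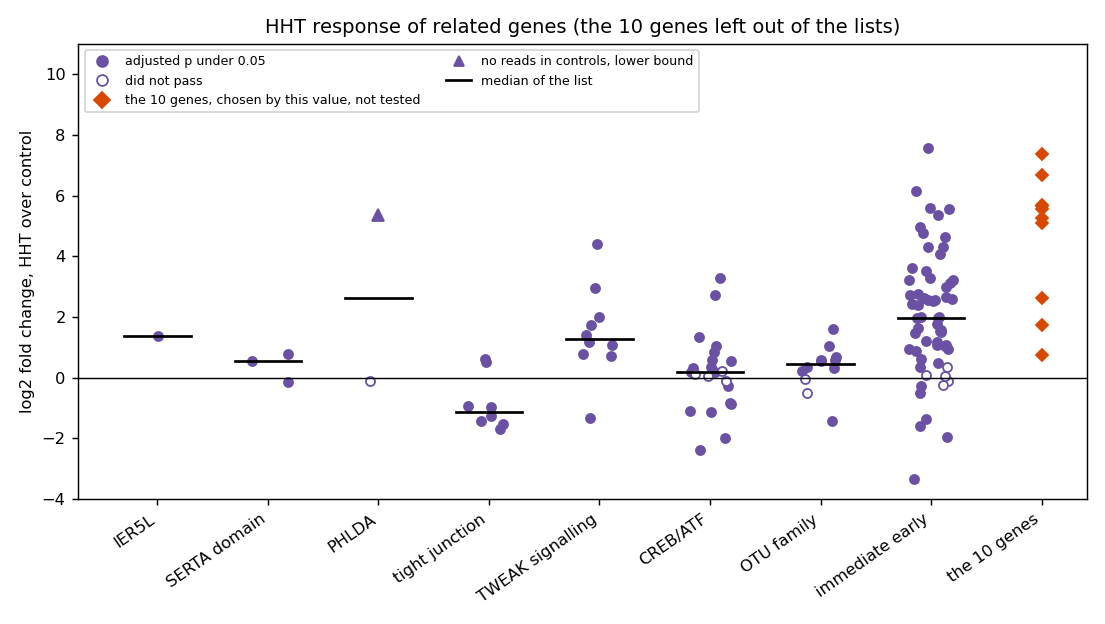
Log2 fold change of HHT over control for genes of the families and pathways of the members, with the 10 genes left out of each list and drawn at the right. Filled circles passed at an adjusted p under 0.05, the triangle is the lower bound for PHLDA2, and black lines are medians; immediate early genes spread up to the range of the 10, while 6 of 8 tight junction genes lie below 0.

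Genes with the nearest profile were found by the root mean square difference of centred log2 CPM over the 10 total RNA libraries, among 9756 coding genes. DUSP8 was nearest to CLDN1 (0.451) and to TNFRSF12A (0.358), and KLHL4 to SERTAD1 (0.286) and CREB5 (0.428). The chemokine genes CCL4 and CCL3L1 were nearest to TMEM217 (0.325) and PHLDA1 (0.467), although CCL3L1 has near-identical copies whose reads may be split. MCL1, a survival gene of the BCL2 family, was nearest to IER2 (0.13), EGR2 to IER3 (0.3), ABHD17B to IER5 (0.125) and MX2 to OTUD1 (0.294). Among the members themselves PHLDA1 and TNFRSF12A were closest (0.286), then SERTAD1 and CREB5 (0.354). The libraries share treatment and line, so these are descriptions.

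The members share some features of structure. Of the 10, 3 (IER2, IER5 and OTUD1) have a single exon in their main coding transcript, against 5.96% of 19659 coding genes, and 6 have at most 2 exons, against 12.82%. For IER2 this rests on the transcript chosen, of 2934 bases, since all its annotated exons cover 3072 bases of a longer gene span. The 3′UTRs run from 557 bases in TNFRSF12A to 6615 in CREB5, beside a median of 819. The AU-rich pentamer ATTTA occurs at least once in 8 of the 10 3′UTRs (61.96% of coding genes) and at least 3 times in 6 (35.91%). CREB5 has 24, PHLDA1 14, IER5 10, CLDN1 8, IER3 6 and OTUD1 5, and TMEM217 and IER2 have 0. Per kilobase of 3′UTR, IER3 has the most, 8.14, at the 97.3 percentile of coding genes, while SERTAD1 (1.61) is near the median of 1.41.

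The genes next to the members on the chromosome, looked at after the members' values were known, were mixed. Of 20 nearest coding neighbours 13 were tested, and 7 rose, 4 fell and 2 did not pass after HHT, with a median of 0.44. Among all genes tested 39.9% rose and 39.3% fell, with a median of 0. P3H2, 183263 bases from CLDN1, rose by 2.93 ± 0.16 (log2, edgeR adjusted p = 6.02e-10). FLOT1, 465 bases from IER3, rose by 0.85 ± 0.06 (adjusted p = 8.82e-09). STX10, 31 bases from IER2, fell by 0.78 ± 0.06 (adjusted p = 1.54e-08), and NAP1L1, 2654 bases from PHLDA1, fell by 0.78 ± 0.06 (adjusted p = 5.6e-08). HCFC1R1, 236 bases from TNFRSF12A, fell by 0.66 ± 0.09 (adjusted p = 1.76e-05).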

How the data were processed

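The authors deposited raw read counts for Ensembl gene IDs, 1 column for each of 14 libraries. STAR 2.6.0b, DESeq2 and GRCh38 are named, per the submitters' processing notes, without saying what each was used for. For the counting program, annotation and strandedness the entry is: not given in the sources used here. Of 58037 IDs, 57433 matched GENCODE release 29, which gave symbols, coordinates and transcript structure, and 604 did not. All columns matched a sample. Replicate libraries differed by more than sampling noise (chi-square per degree of freedom 3.14 to 12.513).

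The members and lists were chosen from general knowledge with earlier results of these data known. Named are the 10 members, the nearest profile gene to each (mean of at least 5 CPM, prior count 2), genes sharing a family with a member, and the 3 genes of each related list with the smallest adjusted p. TRAF5, CLDN15, CGNL1, ZFP36L2, the neighbours and single markers were named after their values were seen.

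Tests used edgeR 4.0.16 in R 4.3.3 (filterByExpr with a minimum count of 10, TMM, quasi-likelihood F-test, Benjamini-Hochberg over all genes tested, threshold 0.05), and the code was tested on simulated data. HHT against control used 8 mutant libraries with line as covariate; line contrasts and the interaction used 4 cell means of the same libraries. Wild-type comparisons used 6 total RNA libraries, RiboLace its own 4, and RiboLace against total RNA 8 with F3 controls as the mutant match. SE is the absolute log2 fold change over the square root of F. Where control reads are few, it can fall below counting error alone and understates the uncertainty of the HHT response. Ratios of few reads have exact 95% binomial intervals. Alternatives were DESeq2 1.42.0, limma-voom (limma 3.58.1), RLE factors, no filter, library totals alone, the replicate block, no line term, the 4 libraries alone and each library left out. No RefSeq promoter is used here for TNFRSF12A and IER3. Some gene results are not reported here.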

Additional observations from a re-analysis of the deposited data

Results flagged for a closer look

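TMEM217 stood at 0.212 CPM in G7 control replicate 4, 4 reads against 2 in each of the other 3 controls. The other 3 counts are tied, and at so few reads such a gap does not mark the library as different.

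The HHT response differed between the lines for IER5 (G7 minus F3, log2 -0.83) and OTUD1 (-1.68), by the interaction term in edgeR. F3 stood higher than its controls by 1.17 for IER5 and 2.54 for OTUD1, and G7 by 0.34 and 0.86.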

How the results depend on the processing

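Of 935 values of single members under another setting, 898 kept their direction and side of the threshold, 31 no longer passed, 6 newly passed and 0 changed sign among called values. Library totals alone shifted the median HHT response of the members from 5.42 to 5.65. Members called without a filter were 1 in mutant against wild type (main 0), 0 in RiboLace F3 against wild type (main 1) and 1 in RiboLace against total RNA in F3 (main 2). DESeq2 gave 1 in G7 against wild type (main 2) and 0 in RiboLace F3 against wild type. The cause was not tested. Leaving out each library in turn, the median response of the members ran from 5.32 to 5.5. Members called ran from 1 to 2 in the interaction, 1 to 4 in controls by line, 7 to 9 after HHT by line, 0 to 0 in mutant, 0 to 1 in F3 and 1 to 2 in G7 against wild type, 0 to 1 in RiboLace F3 against wild type, 2 to 4 for wild-type RiboLace against total RNA and 0 to 2 for that of F3. With 1 library left in a group, that library is assumed to vary like the other groups.

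The background counts moved more. Genes called in the interaction were 548, from 178 (without F3 control 1) to 1089 (without G7 control 4) with 1 library left out and 2153 with the replicate block. Mutant against wild type gave 636, 1655 without a filter, 1111 in DESeq2, 43 without wild-type replicate 1, 63 without replicate 2 and 2652 with the replicate block, which rests on F3 alone. RiboLace F3 against wild type gave 1154, 415 in DESeq2 and 247 (without F3 replicate 2) to 1811 (without wild-type replicate 2). Line differences gave 2727 in controls (1548 to 3189 with 1 library left out) and 3015 after HHT (1438 to 4022), F3 against wild type 2518 (948 to 3250), and RiboLace against total RNA in F3 7548, or 4679 without F3 RiboLace replicate 1. The block used the replicate numbers of the titles, which tie HHT and control libraries by line (correlation of deviations 0.438 to 0.517 over 4 numbers, the line difference included). Within F3 and G7 the correlation was 0.091 and 0.248, and the numbers in the library names match those of the titles only in part, so pairing within a line is not shown. The block changed no member's call. RiboLace depth left 3 of 10 members testable between genotypes.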
